A study of Mus musculus with 4 samples.

Results

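The serpins are a family of proteins that mostly inhibit proteases, and 54 genes of this family were followed in mouse liver across 4 diet and genotype pools. The members are all genes whose single gene symbol in the platform annotation begins with Serpin, the pseudogene Serpina4-ps1 included. They are 54 of the 22180 genes measured, and for the 1 member with 2 probe sets, Serpinb9b, the set with the higher mean over the arrays was used. A RefSeq table lists 69 Serpin symbols. All 54 members were found in it, and the other 15 symbols, among them Serpina3k and Serpina3m, are not analysed here.

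Each of the 4 pools was measured on 1 Affymetrix expression array, and every pool came from C57BL/6 mice older than 2 months, with males and females combined. A first pool held liver RNA of 7 wild-type (WT) mice on regular chow. A second came from 7 WT mice given 70% fructose for 3 weeks, another from 4 WT mice given it for 2 weeks, and the last from 6 Chrebp null mice, also on fructose for 2 weeks. The gene Mlxipl encodes ChREBP, which switches on glycolytic and lipogenic genes when sugar enters hepatocytes. The share of each sex in a pool and the making of the null allele are not stated in the sources used here. The study set the 3-week fructose pool against chow (the fructose comparison) and the null pool against the 2-week WT pool (the Chrebp-null comparison), and these share no array.

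A serpin presents an exposed reactive centre loop as bait. The protease cuts the loop, the inhibitor changes shape, and the enzyme is left trapped and inactive. Hepatocytes secrete much of the serpin content of blood plasma, including inhibitors of clotting, fibrinolysis and complement. Clade A holds the secreted antitrypsin and antichymotrypsin relatives and hormone carriers, clade B the intracellular serpins, and clades C to I antithrombin and smaller groups. Some members, such as the hormone carriers and the collagen chaperone Serpinh1, do not inhibit proteases.

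The near-identical copies of the antitrypsin gene, Serpina1a to Serpina1e, are shown first because the array read Serpina1e differently from the other copies in the null pool. The sequences are 126-base stretches upstream of the annotated starts, from RefSeq (GRCm38.p6), all on the minus strand and written 5′ to 3′. Capitals mark GTTAAT, the HNF1 core motif that was searched for. Each stretch was cut around a shared block that begins with this motif, so its presence in every copy follows from that choice. The block also counts in the identities given below. The Serpina1e stretch ends 62 bases before its annotated start, and those of the other copies end 0 to 11 bases before theirs.
Serpina1a: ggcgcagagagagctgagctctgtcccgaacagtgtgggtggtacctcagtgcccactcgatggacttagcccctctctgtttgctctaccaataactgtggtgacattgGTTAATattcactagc
Serpina1b: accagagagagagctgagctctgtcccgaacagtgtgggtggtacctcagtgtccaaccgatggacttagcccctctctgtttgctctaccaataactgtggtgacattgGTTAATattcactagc
Serpina1c: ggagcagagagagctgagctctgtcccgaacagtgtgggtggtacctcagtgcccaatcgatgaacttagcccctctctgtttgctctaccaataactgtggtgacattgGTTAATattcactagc
Serpina1d: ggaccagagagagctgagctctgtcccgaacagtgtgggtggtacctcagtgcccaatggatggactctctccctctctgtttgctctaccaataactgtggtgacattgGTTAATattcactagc
Serpina1e: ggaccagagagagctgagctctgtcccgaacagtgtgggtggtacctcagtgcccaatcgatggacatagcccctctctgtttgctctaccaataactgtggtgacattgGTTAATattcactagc
The stretches lie at chr12:103863625-103863750 for Serpina1a, chr12:103738200-103738325 for Serpina1b, chr12:103904962-103905087 for Serpina1c, chr12:103773634-103773759 for Serpina1d and chr12:103956960-103957085 for Serpina1e. Serpina1e and Serpina1c were identical in 123 of 126 aligned columns, 97.6%, and Serpina1e and Serpina1a in 122 of 126. Against Serpina1d and Serpina1b the identity of Serpina1e was 96.1% and 94.5%. The transcripts of such copies may be alike too, so the array's probes may not separate them, and the value of each copy is uncertain.

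The expression values are log2 values from RMA, which subtracts background, brings arrays to a common scale and gives each probe set 1 value. A level counted as low when it lay below a floor of 3.52, the median over all genes of their mean level. Levels of different probe sets depend on their probes. They were set against each other only through the floor and where genes or probe sets were chosen or ordered by level. Differences were taken between log2 levels of the same gene on a pair of arrays and counted at 1 or more in size, which is 2-fold. With 1 array per pool no test and no error could be given, so no difference has a replicate check. In pooled whole liver, fewer cells of a type and less RNA per cell cannot be told apart.

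Array medians lay between 3.11 and 3.17, and Pearson's r between arrays lay between 0.974 and 0.983 over 41345 probe sets. Between 11209 and 11239 genes reached the floor on 3 of the arrays, and 10869 on the 2-week WT array. Mlxipl read 9.25 on chow, 9.64 and 9.83 in the WT pools on fructose for 3 and 2 weeks, and 8.09 in the null pool, in the direction of the genotype label. Whether this probe set lies in the part of the gene that the null allele alters is not stated in the sources used here. All 7 hepatocyte markers were at or above the floor, with list medians from 11.97 to 12.19. The lowest of them, Ass1, read 4.39, 4.54, 5.86 and 5.78 in the chow, 3-week WT, 2-week WT and null pools. All 6 neutrophil markers were below it on every array, as were 4 of the 5 measured markers of exocrine pancreas. Of the members, 23 reached the floor on at least 1 array and 18 on all 4, while 31 stayed below it throughout.

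**Figure D1:**
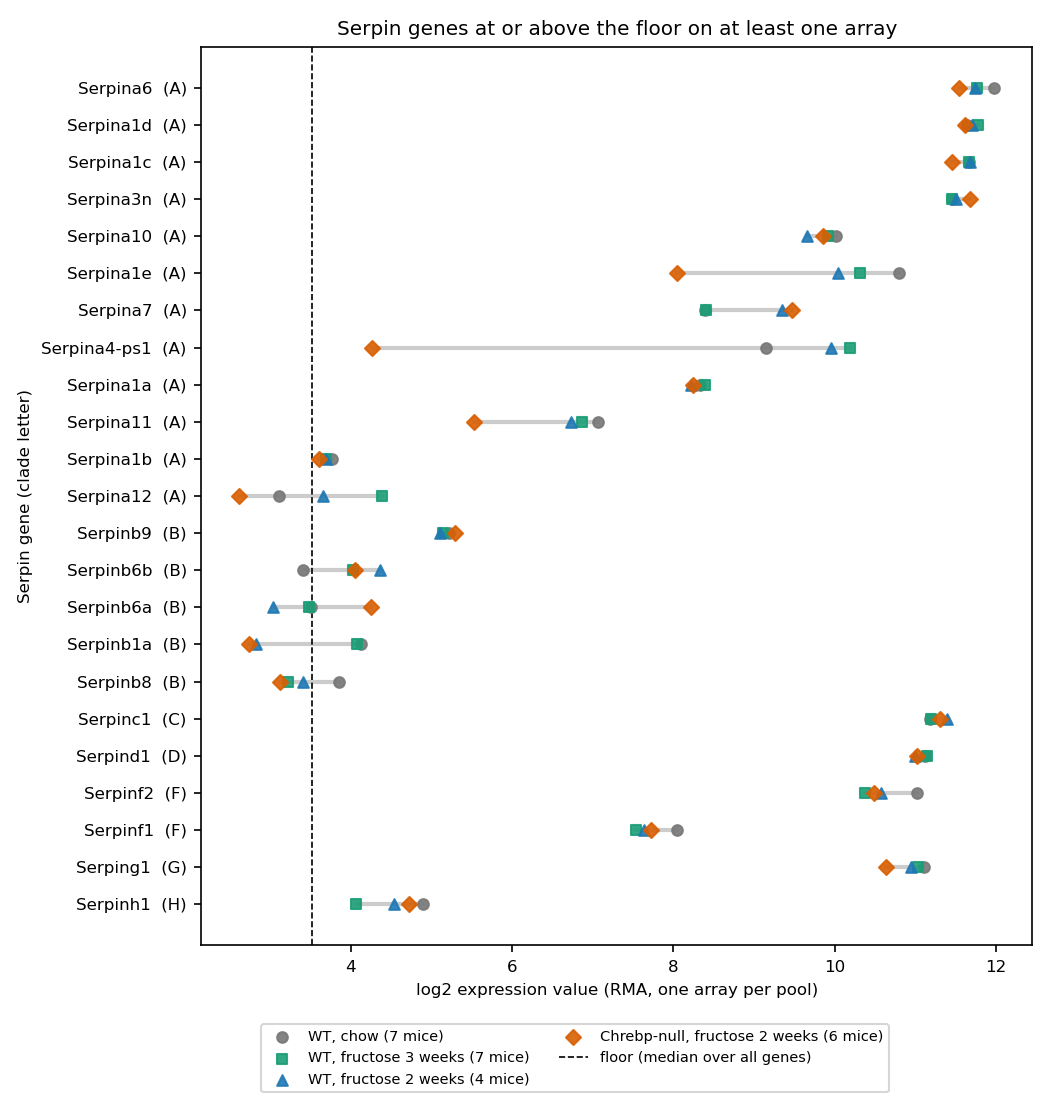
Log2 expression (x axis) of the 23 Serpin genes that reached the floor on at least 1 array, ordered by clade, with 1 point per pool and a grey bar for the range over the 4 pools. The widest bars belong to Serpina4-ps1 and Serpina1e, whose null-pool points at 4.26 and 8.05 stand apart from the 3 WT points.

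By clade, 12 of 20 members of clade A and 5 of 25 members of clade B reached the floor on at least 1 array. The single members of clades C, D, G and H and both members of clade F did so as well. The single member of clade E, Serpine3, and both of clade I, Serpini1 and Serpini2, did not. The 31 low members read between 1.52 and 3.20, and their differences ran from -0.47 to 0.41 in the fructose comparison and from -0.60 to 0.38 in the Chrebp-null comparison. No low member differed by 2-fold in either.

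In the null pool, 4 clade A genes stood at least 2-fold below the 2-week WT pool: Serpina4-ps1, Serpina1e, Serpina11 and Serpina12. In clade B, Serpinb6a stood at least 2-fold above it. These are 4 lower and 1 higher of 21 members assessed, those with either array at or above the floor. Over all 11631 genes assessed 1.43% were at least 2-fold lower and 2.03% at least 2-fold higher. The member median was -0.09, against 0.10 over all genes. Most members lay close to 0, and 14 of the 21 differed by less than 0.25, as did 55.9% of all genes. The 236 higher and 166 lower calls over all genes became 140 and 225 once the trend of the difference with level was removed, and 181 and 180 after quantile normalization. That trend removal shifted the median of all genes from 0.10 to -0.00, and the member counts stayed at 4 lower and 1 higher under both.

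Serpina4-ps1 is listed as a transcribed pseudogene and stands beside the clade A genes on chromosome 12. It read 9.15 on chow, 10.19 in the 3-week and 9.96 in the 2-week WT fructose pool, and 4.26 in the null pool (probe set 17278239). All WT pools were thus high and the null pool alone was low, though still above the floor. The difference was -5.70 against the 2-week WT pool, a ratio of 51.8. Among the 11631 genes assessed it had rank 2 from the lowest, after Slco1a1, an organic anion transporter gene, at -6.24. The null level of Slco1a1, 2.83, was below the floor, and its difference was -5.55 with that level set at the floor. Against the 3-week WT pool Serpina4-ps1 stood at -5.93 and against chow at -4.88, with the null array in each of these differences.

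Serpina1e is one of the mouse copies of the antitrypsin gene. It read 10.80 on chow, 10.32 and 10.04 in the WT pools on fructose for 3 and 2 weeks, and 8.05 in the null pool (probe set 17283641). The null pool was lowest and chow highest, and the WT fructose pools lay between. The difference was -1.996 in the Chrebp-null comparison, a ratio of 3.99, and -2.75 against chow. No other copy differed by 2-fold. Serpina1a, Serpina1b, Serpina1c and Serpina1d stood at 0.02, -0.09, -0.23 and -0.09 in the same comparison.

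Those copies were also flat over all pools. Serpina1c read 11.67, 11.67, 11.69 and 11.46 in the chow, 3-week WT, 2-week WT and null pools. Serpina1d read 11.64, 11.78, 11.71 and 11.62 in the same order. In both, no pool stood apart. Serpina1a lay between 8.22 and 8.39, and Serpina1b, just above the floor, between 3.60 and 3.76. The range of each of these copies was under 0.25, while that of Serpina1e was 2.75.

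Serpina11 encodes a clade A serpin of the same cluster. It read 7.06 on chow, 6.87 and 6.73 in the WT pools on fructose for 3 and 2 weeks, and 5.53 in the null pool. The null pool was lowest again, by -1.20 against the 2-week WT pool, a ratio of 2.30, and by -1.54 against chow. The 150 bases before its annotated start, at chr12:103989958-103990107 of GRCm38.p6 on the minus strand, are shown because its window is 1 of 2 among members at or above the floor that hold TTCNNNGAA, the STAT motif, in capitals here.
Serpina11: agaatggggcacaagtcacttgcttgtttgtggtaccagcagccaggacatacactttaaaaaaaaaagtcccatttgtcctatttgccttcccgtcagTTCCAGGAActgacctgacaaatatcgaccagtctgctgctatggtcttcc
The other such window belongs to Serpinb6a.

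Serpina12 encodes vaspin, a serpin that inhibits a kallikrein and is known from adipose tissue. It read 3.11 on chow, 4.39 and 3.66 in the WT pools on fructose for 3 and 2 weeks, and 2.62 in the null pool. Only the WT fructose pools reached the floor. The difference of -1.04 in the Chrebp-null comparison became -0.13 with the null level set at the floor, which ends the 2-fold count. Against the 3-week WT pool it was -1.77, or -0.86 with the floor.

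The 4 lower genes neighbour each other. Serpina12 is among them only with its null level as measured, and stood at -0.13 with that level set at the floor. In the RefSeq order of the 28 Serpin symbols on chromosome 12, Serpina1e, Serpina11, Serpina9, Serpina12 and Serpina4-ps1 follow directly one after another, with 1 other annotated gene, the long non-coding RNA gene Gm31271, among them. Serpina9, the fifth gene of the stretch, was below the floor on every array and stood at -0.29. The 7 other chromosome 12 members at or above the floor lay between -0.23 and 0.21 in the same comparison. They include Serpina1c, next to Serpina1e, and Serpina3n at the far end. Of the Serpin symbols on this chromosome 19 were measured. This order was noticed after the values were seen and was not tested.

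**Figure D2:**
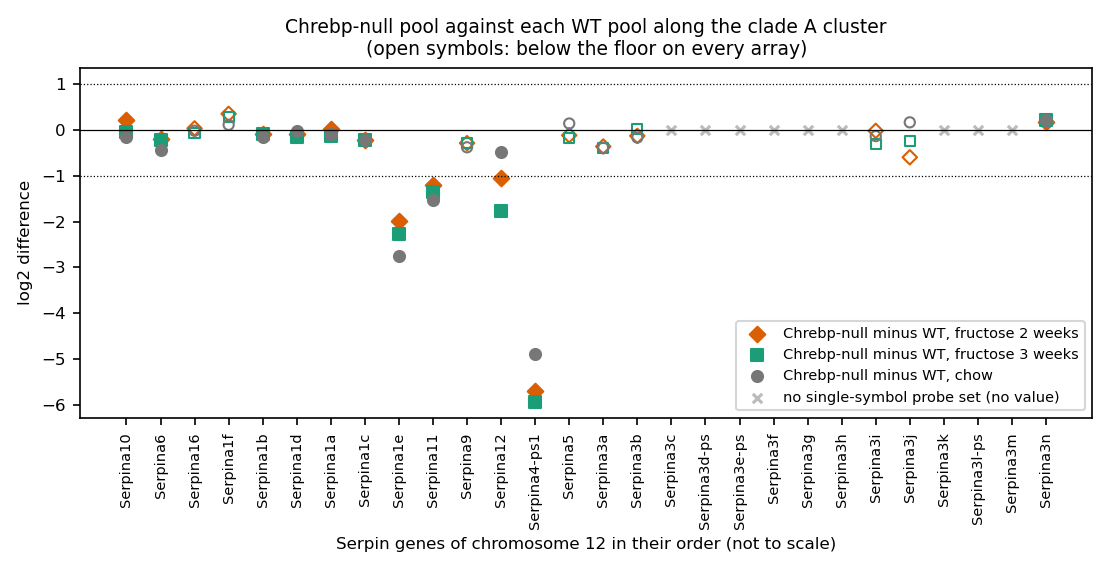
Log2 difference (y axis) of the null pool against each WT pool for the 28 Serpin symbols of chromosome 12 in their order along it (x axis, not to scale). Open symbols are genes below the floor on every array and crosses mark symbols without a value. In the stretch from Serpina1e to Serpina4-ps1 the genes that reached the floor on at least 1 array lie between -5.70 and -1.04 against the 2-week WT pool. The -1.04 belongs to Serpina12, which was below the floor in the null pool and on chow and reaches -0.49 against chow.

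Liver genes known to differ between the sexes also differed in the same comparison. Of the 8 male-biased genes assessed, 6 stood lower by 2-fold or more and none higher, with a median of -2.11. Of 7 female-biased genes, 2 were at least 2-fold lower and 1 higher, with a median of -0.64. Against the 3-week WT pool 5 of 8 female-biased and 8 of 9 male-biased genes were at least 2-fold lower (1.95% of all genes). The medians were -1.52 and -1.80. Against chow 4 of 8 and 6 of 8 were lower (1.43% of all genes), with medians of -1.22 and -3.26. None of either list was at least 2-fold higher there. Xist, which is expressed from an X chromosome of females, read 8.84, 8.77, 8.56 and 7.04 in the chow, 3-week WT, 2-week WT and null pools. The Y-linked genes Eif2s3y, Kdm5d and Uty stood higher in the null pool by 0.84, 0.76 and 0.53 against the 2-week WT pool. The part of the sexes' proportions in the serpin differences was not tested.

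**Figure D3:**
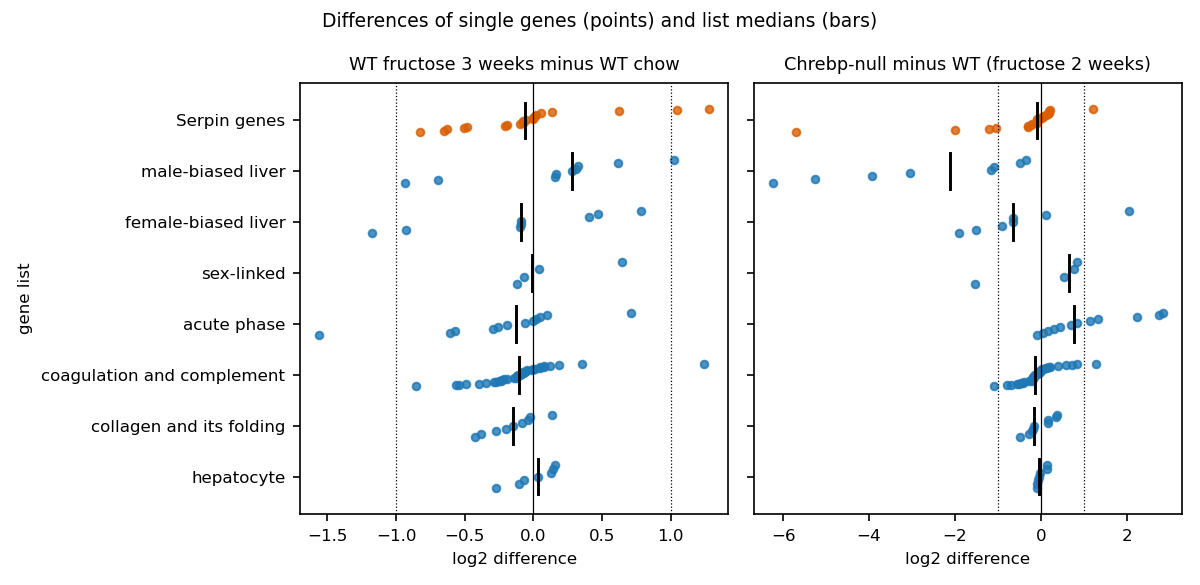
Log2 differences (x axis) of single genes (points) with the median of each list (black bar), for the Serpin genes and 7 other lists, in the fructose comparison (left) and the Chrebp-null comparison (right). Each point is a gene with either array at or above the floor. In the right panel the male-biased list has a median of -2.11 and the Serpin list one of -0.09 with 4 genes at or below -1.

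Serpinb6a, an intracellular inhibitor of trypsin-like proteases and cathepsin G, was the member at least 2-fold higher in the null pool. It read 3.51 on chow, 3.49 and 3.04 in the WT pools on fructose for 3 and 2 weeks, and 4.25 in the null pool. Only the null pool reached the floor. The difference of 1.21 became 0.72 with the 2-week WT level set at the floor, under 2-fold, and was 0.76 against the 3-week WT pool. A further probe set, annotated to both Serpinb6a and 1110046J04Rik, read between 2.14 and 2.64 and stood at 0.03 in the same comparison.

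The null pool was also set against the other WT pools, with the null array shared by all these differences. Against the 3-week WT pool 5 of 22 members were at least 2-fold lower and 1 was higher, against 1.95% and 3.38% of all genes. The lower ones were the same 4 and Serpinb1a, and the higher one was Serpina7. Against chow 4 of 22 were at least 2-fold lower (1.43% of all genes) and Serpina7 was again the 1 higher (1.66%). Serpina4-ps1, Serpina1e, Serpina11 and Serpinb1a were the lower ones there. With its null level set at the floor, Serpinb1a stood at -0.56 against the 3-week WT pool and -0.61 against chow, both under 2-fold, as did Serpina12 against the 3-week WT pool.

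On 3 weeks of fructose, 2 of 22 members assessed were at least 2-fold higher than on chow and 0 were at least 2-fold lower. Over all 11717 genes assessed 0.640% were higher and 1.16% lower. The member median was -0.06, against -0.05 over all genes, and 14 of the 22 differed by less than 0.25, as did 55.1% of all genes. Over all genes the 75 higher and 136 lower calls became 93 and 105 with the trend removed, and the member counts stayed at 2 and 0.

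The 2 higher members, Serpina12 and Serpina4-ps1, also belong to the 4 that were lower in the null pool. With low levels set at the floor Serpina12 has neither call, and it stood at -0.13 in the Chrebp-null comparison. The share of all genes with both calls is not given here, so this overlap has no background beside it. Serpina12 was higher on 3 weeks of fructose by 1.28, a ratio of 2.42, but by 0.86 with the chow level set at the floor. Serpina4-ps1 was higher by 1.04, a ratio of 2.06, just past the threshold. With the 2-week WT pool over chow they stood at 0.55 and 0.81, both under 2-fold, and the same chow array enters each of these differences. Serpina1e and Serpina11 stood at -0.48 and -0.19 on 3 weeks of fructose, and at -0.76 and -0.34 on 2 weeks.

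**Figure D4:**
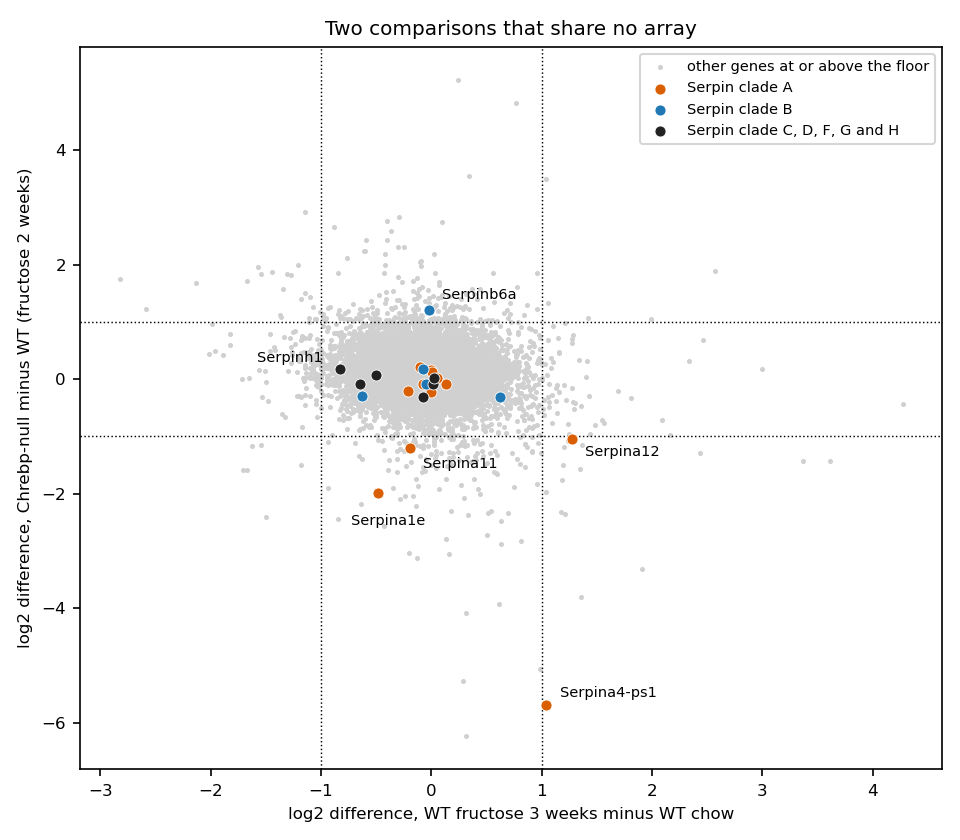
Log2 difference in the fructose comparison (x axis) against that in the Chrebp-null comparison (y axis), with Serpin genes at or above the floor coloured by clade and other genes in grey. Dotted lines mark 2-fold. Serpina12 and Serpina4-ps1 lie to the right of 1 and below -1, and most other members lie near the centre. Low levels are drawn as measured and were not set at the floor.

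Both clade F members and the clade H member had their highest level on chow, with no difference of 2-fold. Serpinf2 encodes alpha-2-antiplasmin, the main plasmin inhibitor. It read 11.03 on chow, 10.38 and 10.58 in the WT pools on fructose for 3 and 2 weeks, and 10.49 in the null pool. Chow was the highest, and the 3 fructose-fed pools stood at -0.65, -0.44 and -0.53 against it. Plg, the gene of plasminogen, stood at -0.23, -0.14 and -0.34 in the same order.

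Serpinf1 encodes PEDF, a secreted factor that limits vessel growth and has no inhibitory activity. It read 8.04 on chow, 7.54 and 7.64 in the WT fructose pools and 7.72 in the null pool, so chow was the highest here too. The fructose-fed pools stood at -0.50, -0.40 and -0.32 against chow, whose single array enters all 3 differences.

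Serpinh1 encodes HSP47, a chaperone that helps collagen fold in the endoplasmic reticulum. It read 4.90 on chow, 4.07 in the 3-week and 4.54 in the 2-week WT pool, and 4.72 in the null pool. The 3-week pool was lowest, at -0.83 against chow, the lowest value of any member in the fructose comparison. The 2-week pool stood at -0.36. Of 9 genes of collagen and its folding assessed, 0 differed by 2-fold in the fructose comparison or in the Chrebp-null comparison. Their medians were -0.15 and -0.15. The 8 markers of stellate cells and fibroblasts, which share collagen genes with that list, had a median of -0.21 in the fructose comparison, also with none past 2-fold.

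Serpinc1, Serpind1, Serping1 and Serpina10, inhibitors in clotting and complement, differed by less than 0.5 between any pair of pools. Serpinc1, antithrombin, read 11.18, 11.19, 11.39 and 11.31 in the chow, 3-week WT, 2-week WT and null pools. Serpind1, heparin cofactor II, read 11.13, 11.15, 11.003 and 11.03. Both inhibit thrombin, and neither set the null pool apart. Serping1, the C1 inhibitor, read 11.11, 11.03, 10.95 and 10.64, with the null pool lowest at -0.31 against the 2-week WT pool. Serpina10, an inhibitor of factor Xa that acts with protein Z, read 10.02, 9.92, 9.66 and 9.86.

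A list of 46 genes that serpins act on or with, outside the Serpin symbols, was also followed, and 43 were measured. Most are genes of clotting, fibrinolysis and complement, but others such as Elane, Ctsg, Pzp, Itih1 and Agt are in it too. Agt stood at -0.86 in the fructose comparison. In the fructose comparison 1 of 38 assessed was at least 2-fold higher and 0 were lower, with a median of -0.10. The higher gene was C1s1, a complement protease of the C1 complex, at 1.24, or 0.88 with its chow level at the floor. In the Chrebp-null comparison 1 of 39 was higher and 1 lower, with a median of -0.13. Thbd, thrombomodulin, stood at 1.29 and F11, clotting factor XI, at -1.09. Against the 3-week WT pool they stood at 0.66 and -1.53.

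The hormone carriers differed in their pattern over the pools. Serpina6 encodes corticosteroid-binding globulin and read 11.98, 11.77, 11.75 and 11.54 in the chow, 3-week WT, 2-week WT and null pools. Serpina7, an X-linked gene, encodes thyroxine-binding globulin. It read 8.40 on chow, 8.40 and 9.35 in the WT pools on fructose for 3 and 2 weeks, and 9.47 in the null pool. Both pools fed for 2 weeks were high and the other 2 low. The null pool therefore stood at 0.12 against the 2-week WT pool but at 1.07 against the 3-week WT pool and 1.08 against chow. The WT pools on fructose differed by -0.95 (3 weeks minus 2 weeks). In the list of 6 corticosteroid and thyroid genes, Dio1, the deiodinase that activates thyroid hormone, stood at -1.92 in the Chrebp-null comparison and at 0.07 on 3 weeks of fructose. The other 5 genes were under 2-fold in both.

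Serpina3n, a mouse relative of antichymotrypsin known as an acute phase protein, read 11.46, 11.46, 11.51 and 11.68 in the chow, 3-week WT, 2-week WT and null pools. The null pool was highest, by 0.16 against the 2-week WT pool. Of 12 acute phase genes assessed, 5 were at least 2-fold higher in that comparison and none was lower, with a median of 0.77. Orm2, Saa2 and Orm3, which encode plasma acute phase proteins, stood at 2.83, 2.75 and 2.25, and at 2.01, 2.84 and 0.09 against the 3-week WT pool. In the fructose comparison none of the 12 was at least 2-fold higher and Saa3 was lower, at -1.56. The median was -0.12.

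Among intracellular serpins, Serpinb1a, an inhibitor of neutrophil elastase, was low in both pools fed for 2 weeks. It read 4.13 on chow, 4.08 in the 3-week WT pool, 2.82 in the 2-week WT pool and 2.74 in the null pool. Chow and the 3-week WT pool were above the floor and close to each other. The 2-week WT pool stood at -1.31 against chow, or -0.61 with the low level at the floor, and Serpinb1a was the 1 member of 22 at least 2-fold lower there (1.41% of all genes). None was at least 2-fold higher (0.783% of all genes). The pool fed for 3 weeks stood at 1.26 above the one fed for 2 weeks, the 1 of 21 members at least 2-fold higher (1.27% of all genes), and 0 of the 21 were lower (1.10%). With the low level at the floor it stood at 0.56, under 2-fold. Sex-biased liver genes of both lists differed in the same pair of WT pools. Of the female-biased genes 4 of 8 were at least 2-fold higher in the 3-week pool, with a median of 0.88. Of the male-biased genes 1 of 9 was, with a median of 0.76. Sult3a1, a sulfotransferase gene of the female-biased list, read 7.62, 8.02, 3.50 and 2.67 in the chow, 3-week WT, 2-week WT and null pools. What part the differences in sex-biased genes have in the Serpinb1a and Serpina7 values was not tested.

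The remaining intracellular members at or above the floor stayed under 2-fold. Serpinb9, the inhibitor of granzyme B, lay between 5.11 and 5.29 in all pools. Serpinb6b, a relative of Serpinb6a, read 3.40 on chow, 4.03 and 4.37 in the WT pools on fructose for 3 and 2 weeks, and 4.06 in the null pool. Chow alone was below the floor, and the 2-week difference of 0.97 became 0.85 with that level at the floor. Serpinb8, an inhibitor of furin, reached the floor on chow alone, at 3.85, and lay between 3.12 and 3.40 in the fructose-fed pools. Of 7 markers of T, B and NK cells 4 were assessed, with none past 2-fold in either comparison.

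Promoter windows of 300 bases, from 250 before to 50 after the annotated start, were available for 47 members. The 7 without a window were Serpina4-ps1, Serpina6, Serpina9, Serpina10, Serpinb1a, Serpinb13 and Serping1, so the motif counts do not cover them. A member counted when any window under its symbol held the motif, while the share over all windows is per single window. The percents are thus not in like units. On either strand GTTAAT was found in 9 of the 47, 19.1%, against 7.10% of all 32851 windows. The 5 near-identical Serpina1 copies are among the 9. TTCNNNGAA was found in 6 of the 47, 12.8%, against 8.30% of all windows. CACGTG, the E-box, was found in 0 of the 47, and in 7.15% of all windows. A match describes these letters and is no evidence of binding.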

How the data were processed

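Liver RNA was purified with RNeasy columns, pooled within each group and labelled with the Affymetrix WT Plus kit, per the labels' protocols. The deposited values are log2 levels made with affy and RMA, per the submitters' processing notes. Their versions, and whether the arrays shared 1 normalization, are not stated in the sources used here. RMA tends to shrink differences, those at low signal most.

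Values were used as deposited. The platform annotation gives 23521 of 41345 probe sets 1 gene symbol, 1814 several and 16010 none, and only the first were used. For the 1082 genes with more than 1 such set, the one with the highest mean was taken. Genes with both compared arrays under the floor (the 50 percentile of gene means) were left out of that comparison's counts. Files of this kind hold no read depth, and the number of arrays limits precision.

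All members are accounted for. Levels in each pool are given for members past 2-fold in a main comparison, for the 12 with the highest mean, and for most members named by function. Ranges stand in for them, in part or whole, for Serpinb8, Serpinb9, Serpina1a and Serpina1b. Of each list the genes with the largest differences were eligible, not all are printed, and Plg and the low or neighbouring genes named as such were chosen after their values were seen. Members and lists were chosen with earlier results of these data known. The lists were genes serpins act on or with (mostly clotting, fibrinolysis and complement), collagen, corticosteroid and thyroid, acute phase, sex-linked and sex-biased genes, and cell type markers. Of the marker lists not described elsewhere, 1 of 6 endothelial genes, Lyve1, was at least 2-fold lower (-1.01) and 1 of 6 macrophage genes, Marco, at least 2-fold higher (2.66) in the Chrebp-null comparison. Of 3 cholangiocyte and 1 keratinocyte markers assessed there, 0 passed 2-fold. The counting was tested on simulated arrays, with changes planted only in genes well above the floor. That simulation does not bear on the calls of members near the floor. Motifs and alignments used RefSeq promoter windows, and no protein sequences were used. As alternatives the floor was dropped or set at the 75 percentile, arrays were median centred, quantile normalized or freed of the trend with level (lowess, fraction 0.3), and probe sets were averaged. Low levels were also set at the floor, thresholds put at 1.5-fold and 3-fold, and the WT fructose array exchanged for the other one or for their mean. Python 3.11.15, numpy 2.4.6, pandas 2.3.3, statsmodels 0.14.6, biopython 1.88 and matplotlib 3.10.9 were used.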

Additional observations from a re-analysis of the deposited data

How the results depend on the processing

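In the fructose comparison the 2 higher members became 1 with a floor at the 75 percentile and 1 with low levels set at the floor, and 0 with a 3-fold threshold, the 2-week WT array or the mean of both WT arrays. At 1.5-fold 3 were higher. The 0 lower members became 3 at 1.5-fold and 1 with the 2-week WT array. In the Chrebp-null comparison the 1 higher member, Serpinb6a, became 0 with a floor at the 75 percentile, with low levels set at the floor, at 3-fold, and with the mean of both WT arrays. With the 3-week WT array the 1 higher member was a different gene, Serpina7. The 4 lower members became 2 at 3-fold, 3 with a floor at the 75 percentile or low levels set at the floor (Serpina12 was lost in both), and 5 with the 3-week WT array. No floor, centring, quantile normalization and trend removal left all these counts as they were. So did the mean of all probe sets, but of the members only Serpinb9b has more than 1 set. Of the other values of single members and medians, 341 kept their call of 2-fold or, where under it, stayed under it and moved by less than the spread between the WT fructose pools (0.35), 9 fell below 2-fold, 2 passed it, 6 moved further, and none that was past 2-fold changed sign. The 341 include differences of single members with the floor dropped or raised, or with probe sets averaged. Those settings could not change these differences. Serpina4-ps1, Serpina1e and Serpina11 stayed past 2-fold in the Chrebp-null comparison against either WT fructose array and their mean. No paired analysis was possible because each group has 1 array and the labels give no replicate numbers. Leaving out a replicate was not possible for the same reason. Members near the floor, such as Serpina12, Serpinb6a, Serpinb1a and Serpinb8, are limited by signal.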
